A study of Vulpes vulpes with 8 samples.

Results

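Genes of the type I interferon response were examined in gingiva of red foxes (Vulpes vulpes). Some of the foxes had hereditary hyperplastic gingivitis (HHG), in which the gum overgrows the teeth. The set was a list of 31 gene symbols chosen by name from the response that type I interferons induce. No measured value entered the rule, but the list was chosen with earlier results of these data known. The platform annotation gave 27 of the 31 a probe set with a single gene symbol, and all 27 passed the filter on low values, among 10824 genes tested. IFIT1, IFIT3, OASL and DDX58 (also named RIGI) had no such probe set and were not analysed here. Each gene was read through its probe set with the highest mean.

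Type I interferons are secreted when a cell senses foreign nucleic acid. They bind the receptor pair IFNAR1 and IFNAR2, whose kinases JAK1 and TYK2 phosphorylate STAT2, which acts with IRF9 to switch on the interferon-stimulated genes. The induced proteins block virus entry, replication and translation, and some of them, such as USP18, dampen the signal again. In the mouth this programme belongs to the barrier defence of the mucosa and is known from inflamed gum as well as from viral infection.

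Each of the 8 foxes gave 1 piece of gingiva and 1 Affymetrix Canine 2 array, whose probes are dog sequences. The 5 HHG affected foxes were males 19, 55 and 107 and females 381 and 757. The 3 HHG unaffected foxes were males 86 and 97 and female 402. Affected status was diagnosed from early signs of the disease. Pieces came either from animals euthanised in the pelting season or from live anaesthetised animals in late spring, and were put in RNAlater. The labels used here give neither the season nor the age of each fox, so the season cannot be told apart from the fox. The p-values below measure the spread between these foxes only.

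The values are MAS5 signals, a linear intensity per probe set, and differences are on the scale log2(signal + 16). Median signal was 28.7 to 33.8 over the arrays, and 63.4% to 74.7% of probe sets lay above a background read from 42 bacterial control probe sets. None of the 27 genes was at background in any fox. Unaffected fox 86 stood apart from the other 7. Its signal of KRT76, a keratin of the suprabasal layer of oral epithelium, was 1029 against 5621 to 16326 in the others, and that of KRT16 was 234 against 2825 to 12887. Its summed signal of 4 leukocyte markers was 4140 against 571 to 2803. Group differences of single genes over all 8 foxes are therefore given below with and without it.

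Fox 86 carried the highest signal for 24 of the 27 interferon response genes, where 17.4% of all genes tested were highest in that fox. All 27 were above their own mean over the foxes in fox 86. The median ratio of fox 86 to the median of the other 7 foxes was 1.95, with a range from 0.89 for IFI6 to 3.12 for HERC5. For 8 genes fox 86 exceeded the next highest fox by more than 1.5 times. These were MX1, MX2, HERC5, HERC6, IFIT5, DDX60, PARP9 and IFI44L. The exceptions were OAS3, highest in affected fox 757, PARP14, highest in affected fox 55, and IFI6, highest in affected fox 381.

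At the other end stood affected female 381, lowest for 9 of the 27 genes and below their mean for 25. The mean of the 27 centred log2 values was 0.74 in fox 86, 0.10 in fox 757 and 0.07 in fox 55. It was -0.06 in fox 107, -0.07 in fox 97, -0.19 in both fox 19 and fox 402, and -0.39 in fox 381. Unaffected foxes thus held the highest value and 2 values inside the affected range of -0.39 to 0.10. The mean of the affected group was -0.10 ± 0.20 (SD, n = 5), and that of the unaffected group was 0.16 ± 0.51 (SD, n = 3).

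**Figure D1:**
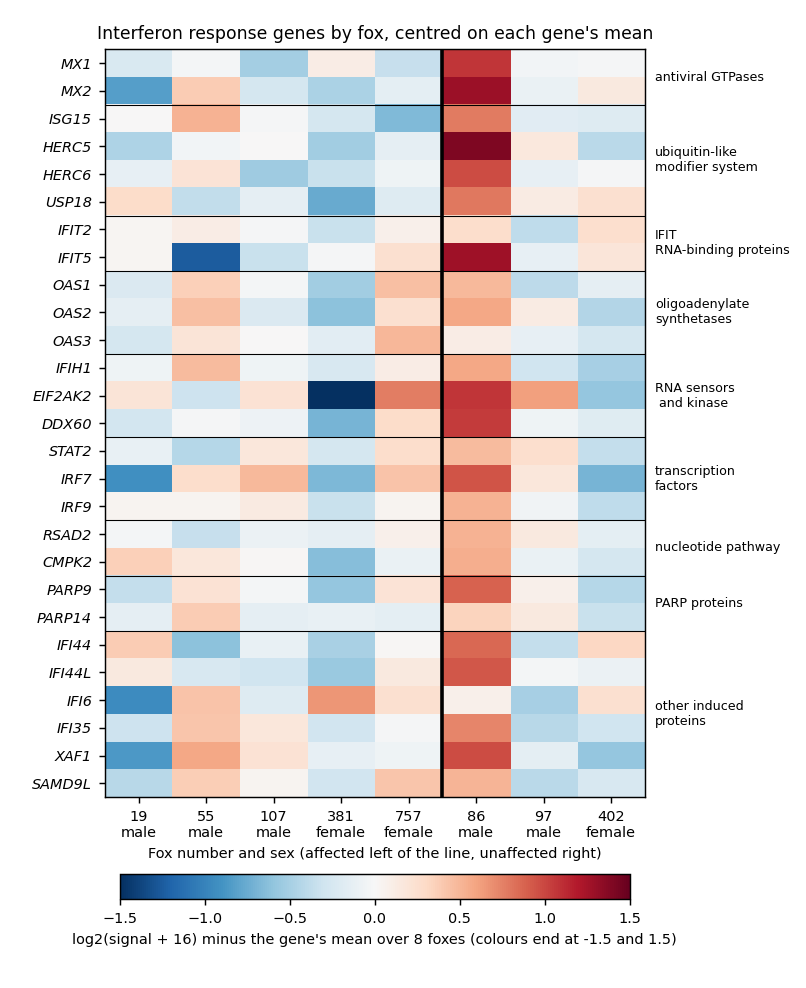
Rows are the 27 interferon response genes grouped by role, columns are the 8 foxes with their number and sex, and colour is log2(signal + 16) minus the gene's mean over the foxes. The column of unaffected male 86 is above the mean for all 27 genes, and that of affected female 381 is below it for 25.

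The antiviral GTPases MX1 and MX2 trap incoming viral particles and block their replication. MX1 had signals of 71.0, 83.8, 55.6, 94.4 and 64.3 in affected foxes 19, 55, 107, 381 and 757, and of 199, 83.4 and 85.1 in unaffected foxes 86, 97 and 402. Fox 86 stood alone, while foxes 97 and 402 fell inside the affected range. The difference, affected minus unaffected, was -0.54 ± 0.28 (log2, SE; limma unadjusted p = 0.078) and -0.18 without fox 86. MX2 had signals of 132, 328, 204, 174 and 221 in the affected foxes in the same order, and of 628, 230 and 275 in the unaffected ones. Of the 5 affected foxes 4 were below every unaffected fox, and fox 55 was above foxes 97 and 402. The MX2 difference was -0.71 ± 0.35 (limma unadjusted p = 0.069) and -0.29 without fox 86.

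The ubiquitin-like modifier ISG15 is joined to proteins by a cascade in which HERC5 acts as ligase. HERC6 is its close relative, and USP18 removes the modifier and also holds the interferon receptor in check. HERC5 had signals of 104, 145, 150, 99.5 and 134 in affected foxes 19, 55, 107, 381 and 757, and of 420, 168 and 109 in unaffected foxes 86, 97 and 402. Fox 86 lay 2.50 times above the next fox, and fox 402 sat among the affected foxes. The difference was -0.62 ± 0.35 (limma unadjusted p = 0.111), and -0.11 without fox 86. USP18 had signals of 124, 73.5, 89.5, 52.5 and 85.2 in the affected foxes, and of 183, 110 and 120 in the unaffected ones. Here 4 of 5 affected foxes were below all 3 unaffected foxes, and fox 19 overlapped them. USP18 was the only one of the 27 with an unadjusted p under 0.05, at 0.034, for a difference of -0.62 ± 0.25 (limma). Over all probe sets tested 2.69% passed that unadjusted threshold, and 2.54% of genes. Without fox 86 the USP18 difference was -0.42, the lowest of the 27. ISG15 ran from 391 in fox 757 to 1088 in fox 86, with a difference of -0.22, and 0.09 without that fox. HERC6 ran from 126 in fox 107 to 386 in fox 86, with a difference of -0.45, and -0.10 without fox 86.

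The IFIT proteins bind viral RNA that lacks the marks of host RNA. IFIT5 had signals of 209, 76.3, 159, 202 and 244 in affected foxes 19, 55, 107, 381 and 757, and of 514, 186 and 234 in unaffected foxes 86, 97 and 402. The groups overlapped, with fox 55 far below all others and fox 86 far above. The difference was -0.71 ± 0.39 (limma unadjusted p = 0.10), and -0.29 without fox 86. IFIT2 was near the dim end, from 16.6 in fox 97 to 34.8 in fox 86, with a difference of -0.07, and 0.04 without fox 86.

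The oligoadenylate synthetases OAS1, OAS2 and OAS3 respond to double-stranded RNA by making the small molecule that activates RNase L. OAS2 had signals of 82.5, 132, 77.1, 54.2 and 111 in affected foxes 19, 55, 107, 381 and 757, and of 146, 101 and 63.5 in unaffected foxes 86, 97 and 402. The groups were interleaved, and the difference was -0.14 ± 0.29 (limma unadjusted p = 0.637), and 0.11 without fox 86. OAS3 differed from most of the set, with fox 757 on top. Its signals were 30.0, 47.2, 39.3, 33.3 and 61.5 in affected and 43.4, 34.8 and 29.9 in unaffected foxes, a difference of 0.15 ± 0.21, the highest of the 27, and 0.25 without fox 86. OAS1 ran from 823 in fox 381 to 1672 in fox 86, with a difference of 0.02, and 0.27 without that fox.

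EIF2AK2, the kinase PKR, halts translation on binding double-stranded RNA, IFIH1 is the sensor MDA5, and DDX60 is a helicase of the same pathway. EIF2AK2 had the widest spread of the set, with signals of 109, 72.3, 111, 12 and 170 in affected foxes 19, 55, 107, 381 and 757. Unaffected foxes 86, 97 and 402 gave 214, 153 and 57.5. Fox 381 lay just above its array's background of 10.8. The difference was -0.59 ± 0.58 (limma unadjusted p = 0.328), the largest standard error of the 27, and -0.24 without fox 86. DDX60 ran from 114 in fox 381 to 424 in fox 86, with a difference of -0.43, and -0.04 without that fox. IFIH1 ran from 344 in fox 402 to 745 in fox 86, with a difference of 0.11, and 0.44 without fox 86.

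Of the transcription factors, STAT2 and IRF9 carry the signal to the nucleus and IRF7 drives the making of further interferon. IRF7 had signals of 49.2, 132, 157, 61.6 and 150 in affected foxes 19, 55, 107, 381 and 757, and of 221, 123 and 60.1 in unaffected foxes 86, 97 and 402. Both groups held low and high foxes, and foxes 19, 381 and 402 formed the low end. The difference was -0.22 ± 0.43 (limma unadjusted p = 0.620), and 0.18 without fox 86. STAT2 ran from 108 in fox 55 to 215 in fox 86 and IRF9 from 240 in fox 402 to 462 in fox 86, with differences of -0.20 and -0.04. Without fox 86 these were -0.02 and 0.20.

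RSAD2 (viperin) makes a nucleotide that terminates viral RNA chains, and CMPK2 is the nucleotide kinase encoded next to it. CMPK2 had signals of 150, 129, 114, 66.7 and 104 in affected foxes 19, 55, 107, 381 and 757, and of 171, 104 and 91.6 in unaffected foxes 86, 97 and 402. The groups overlapped over most of their range, with a difference of -0.10 ± 0.26 (limma unadjusted p = 0.719), and 0.14 without fox 86. RSAD2 ran from 19.6 in fox 55 to 48.9 in fox 86, with a difference of -0.28, and -0.11 without that fox. The ADP-ribosylation proteins PARP9 and PARP14 act on the same signalling axis. PARP9 had signals of 60.8, 98.4, 80.1, 49.9 and 97.5 in the affected foxes and of 165, 87.7 and 57.2 in the unaffected ones. Fox 86 was above all others, and the 2 further unaffected foxes sat among the affected, with a difference of -0.29 ± 0.30 (limma unadjusted p = 0.370) and 0.07 without fox 86. PARP14 had 89.0, 135, 89.3, 91.3 and 88.8 in the affected and 129, 112 and 75.5 in the unaffected foxes, so that affected fox 55 was on top. Its difference was -0.07, and 0.07 without fox 86.

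Of the other induced proteins, XAF1 promotes cell death and IFI6 guards membranes of the endoplasmic reticulum and mitochondria. XAF1 had signals of 44.6, 149, 113, 85.4 and 89.7 in affected foxes 19, 55, 107, 381 and 757, and of 202, 83.9 and 58.0 in unaffected foxes 86, 97 and 402. Foxes 86 and 55 were high and foxes 19 and 402 low, with a difference of -0.14 ± 0.39 (limma unadjusted p = 0.735), and 0.31 without fox 86. IFI6 went against the set. Its signals were 1214, 3162, 2049, 3729 and 2780 in the affected and 2480, 1656 and 2774 in the unaffected foxes. Fox 381, low for most of the genes, was highest here, and the difference was 0.10 ± 0.35, and 0.17 without fox 86. IFI44, IFI44L, IFI35 and SAMD9L had differences of -0.44, -0.43, -0.01 and 0.07, each with its highest signal in fox 86. Without fox 86 these were -0.15, -0.10, 0.35 and 0.35. OAS3, PARP14 and IFI6 are given in full because they were not highest in fox 86, a choice made after their values were seen.

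**Figure D2:**
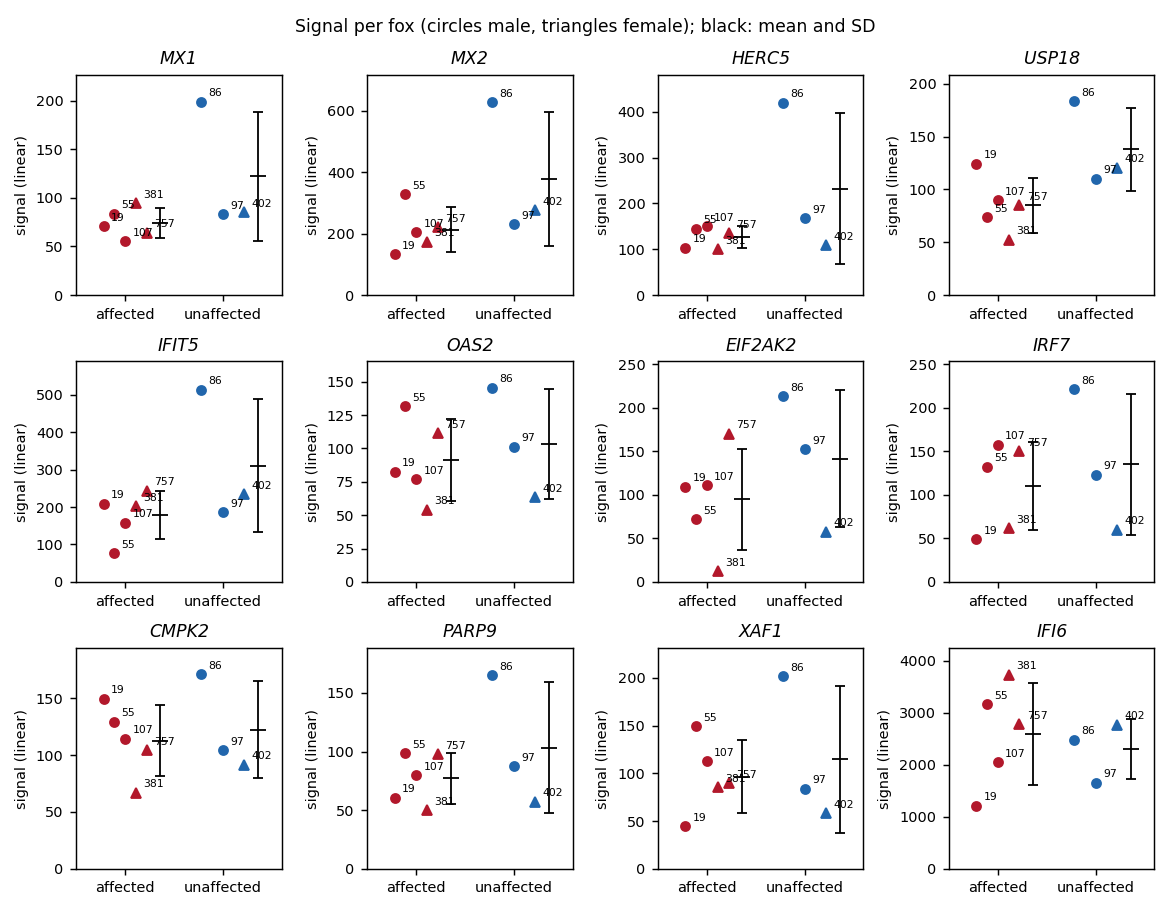
Linear signal of 12 of the genes in each fox, affected in red and unaffected in blue, circles for males and triangles for females, with the group mean and SD in black. Unaffected fox 86 tops 11 panels, and affected fox 381 tops IFI6.

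No probe set passed the threshold of limma's adjusted p under 0.05 between affected and unaffected foxes, higher or lower (0% of 25754), and 693 had an unadjusted p under 0.05. The adjusted p was 0.99988 for each of the 27 genes. Of these 22 had a lower mean in affected foxes, beside 54.7% of all genes tested. Their median difference was -0.22 and that over all genes was -0.03, with standard errors of 0.19 to 0.58. No gene of the set had groups that did not overlap, beside 1.32% of all genes with affected foxes lower and 1.12% with affected foxes higher.

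Without fox 86 the set had 12 lower and 15 higher means in affected foxes, and 53.9% of all genes were lower. Their median was then 0.07, with a range from -0.42 for USP18 to 0.44 for IFIH1. MX1, MX2, HERC5, HERC6, USP18, IFIT5, EIF2AK2, DDX60, STAT2, RSAD2, IFI44 and IFI44L kept a lower mean in affected foxes. Leaving out the other unaffected foxes moved the set the other way. Without fox 402 the median was -0.44, and without fox 97 the count was 26 of 27 lower. In those limma fits 3 and 5 of the 27 had an unadjusted p under 0.05, beside 3.12% and 1.84% of all probe sets. Without fox 86 the count was 0, beside 4.80%.

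**Figure D3:**
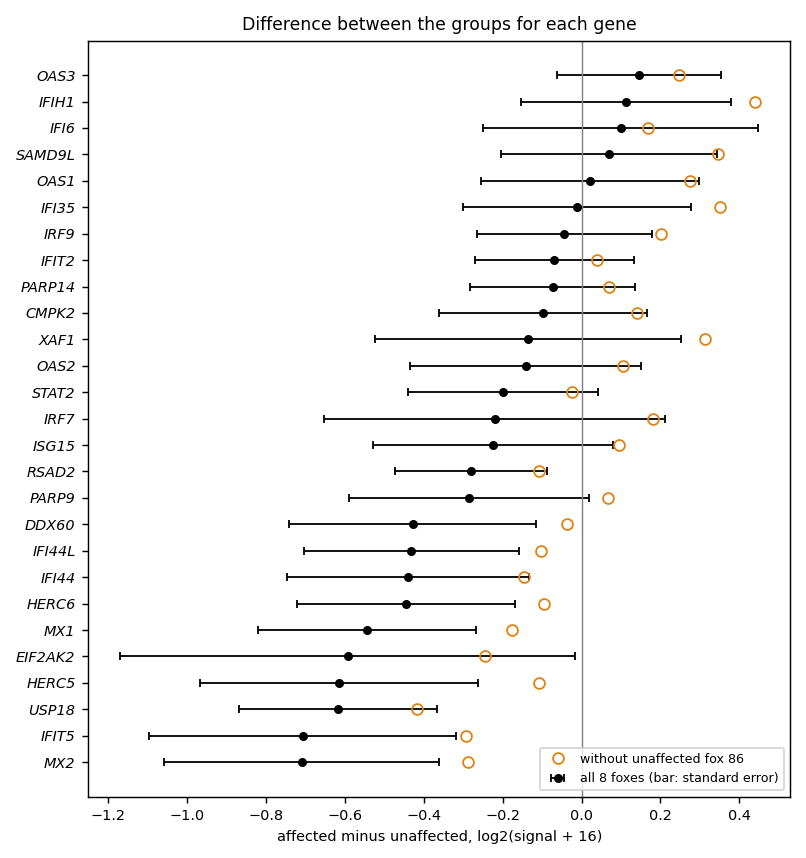
Difference between group means, affected minus unaffected, on the log2(signal + 16) scale for each of the 27 genes, black with its standard error over all 8 foxes and open orange without unaffected fox 86. All but 5 of the black points lie below 0, and 15 of the open points lie above it.

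The genes were then compared pair by pair over the foxes, as a description over 8 arrays that share their tissue pieces. Over the 351 pairs the median Pearson r was 0.58, with a range from -0.52 to 0.95, and 59.3% of pairs exceeded 0.5. Over all pairs of genes tested the median was 0.003 and 14.0% exceeded 0.5. With each group centred on its own mean the median for the set was 0.59. Spearman's rho had a median of 0.43. Without fox 86 the median Pearson r was 0.26, with 28.8% above 0.5 and 114 pairs below 0. Leaving out any other single fox gave 0.56 to 0.67. Without foxes 86 and 381, which had the scores farthest from the median, it was 0.11.

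The genes closest to the rest of the set, by r with the mean of the other 26, were DDX60 at 0.98, PARP9 at 0.96 and HERC5 at 0.94. IFI6 was the farthest at -0.03. Without fox 86 PARP9 (0.95), DDX60 (0.94), OAS2 (0.88) and OAS1 (0.84) still followed the others, while MX1 was at -0.54 and IFIT5 at -0.49. Some of the high values without fox 86 follow, for genes of different roles and of the same role. HERC5 and IRF7 had r = 0.88 and DDX60 and PARP9 0.87. OAS1 and SAMD9L had r = 0.93, OAS2 and PARP9 0.93, OAS3 and SAMD9L 0.92, IRF7 and PARP9 0.89, and DDX60 and EIF2AK2 0.86. IFI35 and XAF1 had 0.81. STAT2 and RSAD2 had 0.86.

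Some genes ran opposite to each other in the 7 foxes without fox 86. The r was -0.88 for IFIT5 and ISG15, -0.85 for IFIT5 and PARP14, -0.81 for IFI44 and XAF1 and -0.77 for IFIT5 and IFI35. Fox 55 weighed heavily in the r of IFIT5, which had 1 probe set. The centred log2 value of IFIT5 was -1.25 in fox 55, against -0.33 to 0.24 in the rest of the 7. Values of r without both foxes 86 and 55 were not computed. Fox 55 was the lowest of all 8 foxes for IFIT5, IFI44, STAT2 and RSAD2. It was above the mean for 17 of the 27 genes, among them ISG15, XAF1 and PARP14. A second probe set of IFI44, with r = 0.92 to the first, was also lowest in fox 55, at 43.0. For STAT2 the further probe sets differed, and 1 of them was highest in fox 55, at 181. These groupings were read from the values and carry no test.

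**Figure D4:**
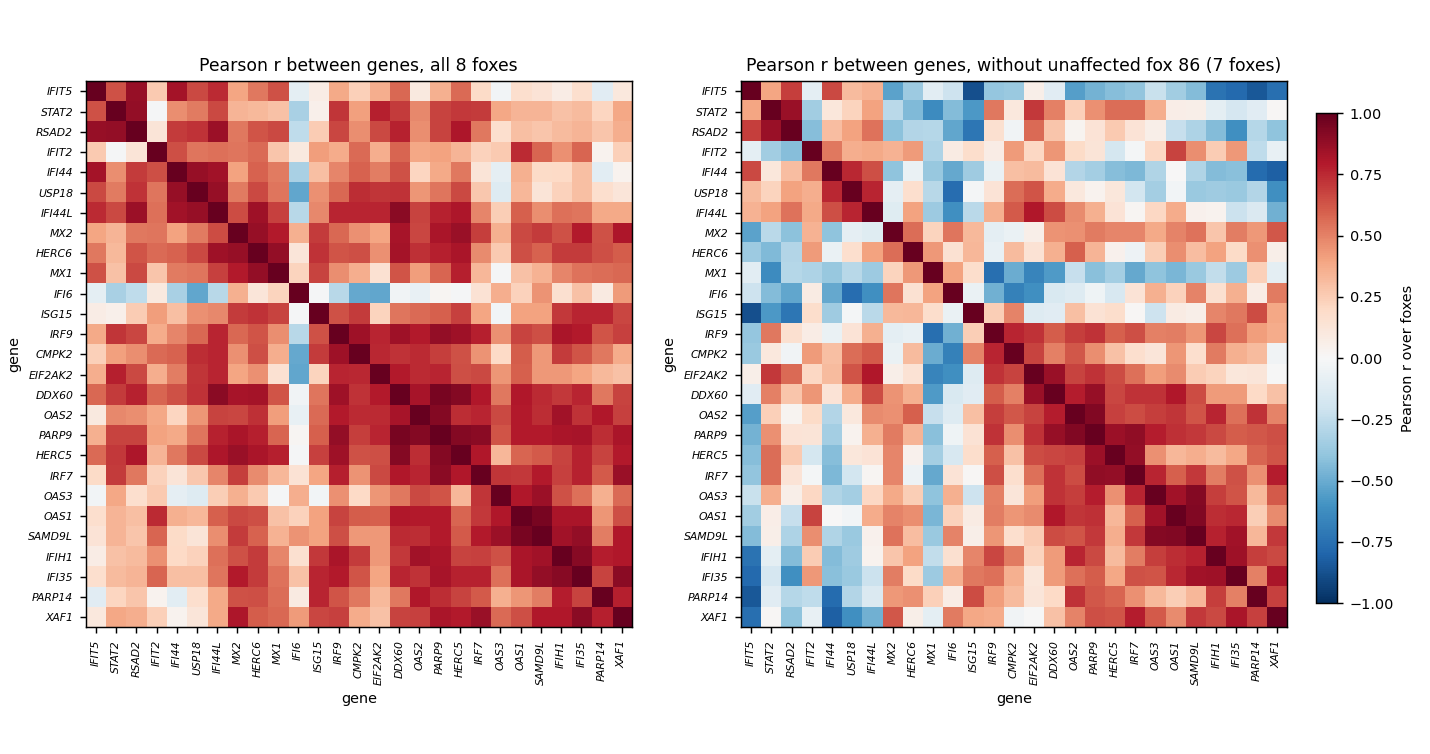
Pearson r between every pair of the 27 genes, on the left over all 8 foxes and on the right over the 7 foxes without unaffected fox 86, with genes in the same order in both. The median of 0.58 on the left becomes 0.26 on the right, where IFIT5 and ISG15 reach -0.88.

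Several of the genes are neighbours on fox chromosomes, by the gene order of the VulVul3 assembly. The 8 pairs of close neighbours that were measured had a median r of 0.80 over 8 foxes and 0.63 without fox 86. OAS1 and OAS3, which lie side by side, had r = 0.80 and 0.84 without fox 86, and OAS3 and OAS2 had 0.66 and 0.69. IFI44 and IFI44L had 0.84 and 0.65. The pairing was weaker without fox 86 for MX1 and MX2 (0.79 and 0.23), HERC5 and HERC6 (0.81 and 0.04) and RSAD2 and CMPK2 (0.47 and -0.03).

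For 11 of the 27 genes the array held more than 1 probe set of the same single symbol. Of 21 further probe sets tested, 15 were also highest in fox 86, and 12 had the sign of the first probe set in affected minus unaffected foxes. Their median r with the first was 0.74, from -0.58 for a probe set of STAT2 to 0.99 for ISG15. The second probe set of IFI6 had its highest signal in fox 86, at 2982, and r = 0.88 to the first.

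Sex was compared with disease status in the model. Of the 27 genes 24 had a lower mean in the 3 females than in the 5 males, beside 49.8% of all genes tested. The median difference, female minus male, was -0.30, and that over all genes was 0.001. No gene of the set passed limma's threshold, the lowest adjusted p being 0.99994. CMPK2 had an unadjusted p under 0.05, at 0.039 in limma, for -0.53 ± 0.22, beside 2.29% of all probe sets. Over all probe sets 1 was called lower in females (0.00388%) and none higher, with 589 at an unadjusted p under 0.05. EIF2AK2 had the largest difference, -0.91 ± 0.53 (SE), with female foxes 381 and 402 at 12 and 57.5 and female 757 at 170. IFI6, at 0.60 ± 0.31, was the furthest in the other direction. Fox 86 is a male, and without it 17 genes were lower in females, beside 50.1% of all genes, with a median of -0.10. CMPK2 was then at -0.44 (limma unadjusted p = 0.078) and EIF2AK2 at -0.80. Without female 402 the count was 20 and the median -0.09, and without female 381 they were 20 and -0.17, with EIF2AK2 at -0.28.

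Within males 26 of the 27 genes had a lower mean in affected foxes, with a median of -0.44, and the unaffected males were foxes 86 and 97. Within females 12 were lower, with a median of 0.10, and fox 402 was the only unaffected female. The interaction of disease and sex had a median of 0.45 over the set, 0.03 without fox 86, 0.82 without fox 97 and 0.21 without fox 757. Its lowest unadjusted p in the set was 0.111, beside 2.48% of all probe sets under 0.05. Its lowest adjusted p was 0.99995 in limma, and no probe set passed (0%).

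The actin control of the array, whose probe sets at the 5' end lose signal when RNA or its copy is shortened, put the foxes into sets of 4. Foxes 86, 97, 107 and 757 had a log2 ratio of 5' over 3' signal between -0.77 and -0.58. Foxes 19, 55, 381 and 402 had one between -2.84 and -1.83. Within the first set, which holds fox 86, 22 of the 27 genes were lower in affected foxes, with a median of -0.34. Within the second set, where fox 402 was the only unaffected fox, 12 were lower, with a median of 0.06. With the ratio as a covariate 18 were lower, with a median of -0.09.

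The rest of the pathway was read from gene lists by role, none of which had a gene past limma's threshold. None of the 4 ligands measured passed the filter on low values. IFNB1 was at background in all 8 foxes, with signals of 0.53 to 10.2, and IFNK reached 31.5 in fox 55. Of 4 receptor genes tested 3 were higher and 1 was lower in affected foxes, with a median of 0.08 and 0.39 without fox 86. Only IFNAR1 among them belongs to the type I receptor. Its difference was 0.10, and 0.39 without fox 86, and IFNAR2 had no probe set of 1 symbol. IFNGR2 of the interferon gamma receptor was at 5176 in fox 86 and 830 to 3328 in the others, with a difference of 0.06, and 0.78 without fox 86. Of 9 kinases and transcription factors 3 were higher and 6 lower, of 9 nucleic acid sensors and adaptors 1 and 8, and of 5 feedback inhibitors 1 and 4. Medians were -0.03, -0.18 and -0.08, and 0.01, -0.16 and 0.01 without fox 86.

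Among 24 further interferon-induced genes 6 were higher and 18 lower in affected foxes, with a median of -0.12 and 0.04 without fox 86. Fox 86 held the highest signal of 15 of the 24. ISG20, an exonuclease that degrades viral RNA, was apart from this pattern. It had signals of 196, 295, 200, 169 and 194 in affected foxes 19, 55, 107, 381 and 757 and of 152, 82.7 and 94.0 in unaffected foxes 86, 97 and 402. All 5 affected foxes lay above all 3 unaffected foxes, including fox 86. The difference was 0.87 ± 0.23 (limma unadjusted p = 0.004, adjusted p = 0.99988), and 1.1 without fox 86. Its r with the mean of the 27 genes was 0.10. TRIM22, an antiviral ligase, had -0.70 ± 0.36, with 5.31 in fox 19 and 85.2 in fox 86, and -0.48 without fox 86.

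Genes better known from interferon gamma gave 3 higher and 11 lower of 14, with a median of -0.10 and 0.05 without fox 86. CXCL10, a chemokine that draws T cells, had signals of 69.3, 253, 335, 104 and 219 in the affected and of 637, 304 and 197 in the unaffected foxes. Fox 86 was again highest, and the difference was -0.92 ± 0.50 (limma unadjusted p = 0.092), and -0.48 without fox 86. IDO1, which breaks down tryptophan, went the other way at 0.48 ± 0.44, with 315 in fox 55, and 0.81 without fox 86. The list's mean centred value had r = 0.83 and rho = 0.95 with that of the 27 genes over the 8 foxes. Its r was 0.74 without fox 86 and 0.88 without foxes 86 and 381. For the further interferon-induced genes r was 0.89 and rho 0.90, with r = 0.71 without fox 86 and 0.90 without foxes 86 and 381.

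Markers of several cell types correlated with the interferon genes over the 8 foxes, most of them less so without fox 86. In whole tissue fewer cells of a type and less RNA per cell cannot be told apart. The 4 leukocyte markers, all measured above background, summed to 571 to 2803 in the affected foxes and to 1136 to 4140 in the unaffected ones, highest in fox 86. Their mean centred value had r = 0.67 and rho = 0.81 with that of the 27 genes, and r = 0.43 without fox 86. T cell markers (6 of 8 tested) summed to 139 to 904 in the affected and 284 to 1498 in the unaffected foxes, with r = 0.70, and 0.43 without fox 86. B and plasma cell markers (3 of 7 tested) had r = 0.70 and 0.45. The dendritic cell markers FLT3 and CCR7, 2 of 5, had 0.89 and 0.40, and endothelium (4 of 5) 0.77 and 0.08. Summed signals of dendritic cell markers ran from 69.7 to 96.4 in the affected foxes and from 59.7 to 226 in the unaffected ones. Those of endothelium ran from 592 to 946 and from 538 to 1201, and those of B and plasma cells from 1191 to 9254 and from 795 to 12161. Each of these sums was highest in fox 86. JCHAIN made up most of the B and plasma cell sum, with 11976 of the 12161 in fox 86. CD79A of the same list was at background in 2 foxes. Without both foxes 86 and 381, r was 0.74 for leukocyte, 0.84 for T cell and 0.67 for B and plasma cell markers. It was then 0.75 for dendritic cell markers and 0.64 for endothelium. Of 5 markers of plasmacytoid dendritic cells, major makers of type I interferon, only TCF4 and IL3RA were tested. Their r was 0.36, -0.02 without fox 86, and 0.77 without foxes 86 and 381. Singly TCF4 had r = 0.47 and IL3RA -0.20, and without fox 86 these were -0.48 and 0.45. IL3RA was at background in 2 foxes. Their summed signal ran from 310 to 590 in the affected foxes and from 295 to 755 in the unaffected ones. TCF4 made up most of it, with 744 of the 755 in fox 86. SPIB, CLEC4C and LILRA4 had no probe set of 1 symbol here. Cytotoxic lymphocyte markers had r = 0.66, macrophage markers 0.56 and fibroblast markers 0.51. Without fox 86 these were 0.43, 0.38 and 0.04, and their sums were also highest in fox 86. Neutrophil markers had r = 0.34, cycling cell markers 0.30 and mast cell markers 0.29. Without fox 86 these were 0.40, 0.28 and 0.30, and their sums were highest in other foxes. ACTA1, the 1 skeletal muscle marker tested, had 0.54 and 0.31.

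The suprabasal keratins ran opposite to the interferon genes. KRT13, KRT76 and KRT16, the 3 of 5 that were measured, summed to 17087 to 38950 in the affected and 7777 to 41747 in the unaffected foxes. Their r with the 27 genes was -0.95 and rho -0.81, and r was -0.78 without fox 86. The cornified epithelium markers, 6 of 9, had summed signals of 5017 to 14323 and 1314 to 8932, with r = -0.78 and -0.71 without fox 86. These markers did not behave alike. IVL, which made up 7098 of the 9591 in fox 55, had r = -0.79, and 0.37 without fox 86. TGM3 had -0.74 and -0.33, and KRT10 had -0.74 and -0.86. KRT1, KLK5 and KLK7 had negative r both with and without fox 86. KRT1 was at background in 5 foxes, KLK7 in 4 and KLK5 in 2. The basal epithelium markers TP63 and COL17A1, 2 of 5, did not share this pattern, with r = -0.10 and -0.18 without fox 86. Their mean centred value was -0.02 in fox 86 and lowest in fox 55, at -1.01. The part of these tissue differences and of RNA quality in the interferon gene values was not tested.

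**Figure D5:**
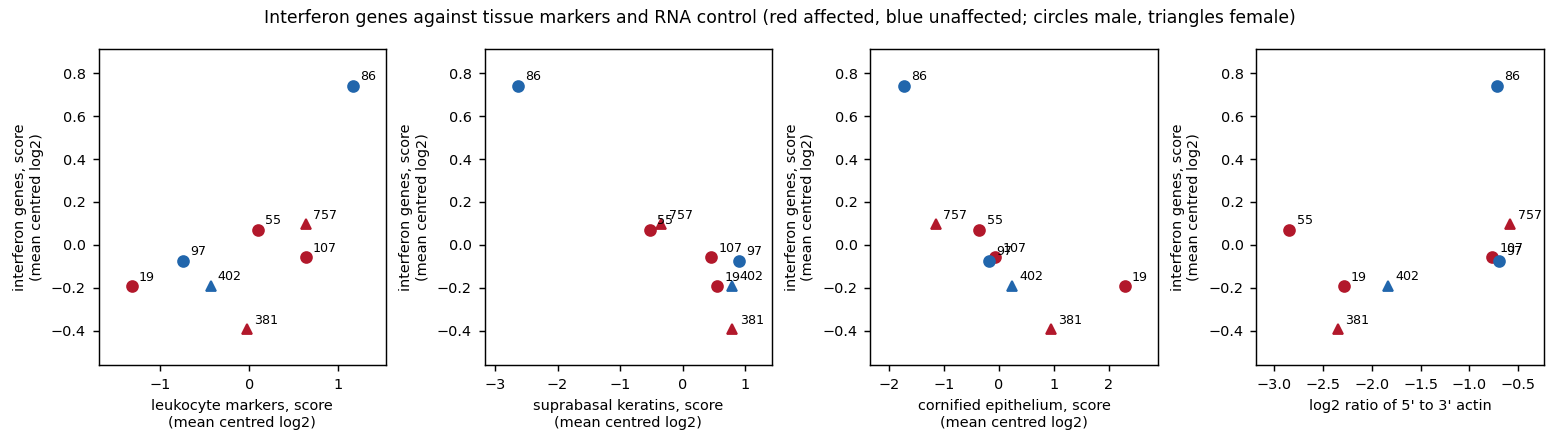
Mean centred log2 value of the 27 interferon genes in each fox against the same for leukocyte markers, suprabasal keratins and cornified epithelium markers, and against the actin control as log2 of 5' over 3' signal. Fox 86, at 0.74, is highest for leukocyte markers and lowest for the suprabasal keratins and the cornified epithelium markers.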

How the data were processed

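Gingiva of 8 foxes (5 affected, 3 unaffected) was measured on 1 array each. The deposited table holds MAS5 signals, a linear intensity per probe set, per the submitters' processing notes. Its version, background method and scaling target were not given in the sources used here. With 2% trimmed from each tail, every array averaged 150. Of 43035 probe sets 111 were controls. Of the other 42924 the platform annotation named 29254 with 1 symbol and 439 with several, and 13231 were unnamed here.

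Analysis was on log2(signal + 16), without normalization beyond that of the authors. The dimmest 40% of probe sets by mean were left out, leaving 25754. The offset shrinks differences of dim probe sets. Groups, sexes and their interaction were fitted with limma 3.58.1 in R 4.3.3 (lmFit, eBayes), with Benjamini-Hochberg adjustment over all probe sets and a threshold of 0.05. Background was the 95th percentile of 42 bacterial control probe sets. A list score is the mean of centred log2 values.

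Values in every fox are given for the gene with the largest SD in each role and the 5 with the smallest p. Pathway genes were named by smallest p, up to 2 per list and direction, and some that the rule allows are left out. IFNGR2, IFNB1, IFNK and the marker genes were named after their values were seen. The members and lists were chosen with earlier results of these data known. Alternatives covered the offset, normalization, filter, probe set, sex, array weights, the actin ratio and each fox left out. The fits within each actin set were added after seeing the data. The number of arrays limits precision. On simulated arrays for affected minus unaffected (25754 probe sets, 200 changed, 5 draws) limma recovered 28.4%, 80.4% and 95.6% of changes of 1, 2 and 3 on the log2 scale. Fox genes were ordered by the VulVul3 assembly, and no sequence was used here.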

Additional observations from a re-analysis of the deposited data

Results flagged for a closer look

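Among the 5 affected foxes, 3 of the 27 genes had a fox whose gap to the next, divided by the group's range, exceeded 0.71, the 95% critical value of Dixon's test. Gaps and ranges were taken on the log2 scale of the analysis, with its offset, while the signals printed below are linear. Chance gives about 1 in 20 groups, and unaffected foxes were too few to test. IFIT2 in fox 381 was 17.6 against 26.0 to 29.9 in the other affected foxes (ratio 0.715, close to the critical value). Taken on these linear signals, the IFIT2 ratio would lie below that value. IRF9 in fox 381 was 250 against 326 to 351 (ratio 0.787). PARP14 in fox 55 was 135 against 88.8 to 91.3 (ratio 0.935).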

How the results depend on the processing

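The count of 0 probe sets past the threshold between affected and unaffected foxes was 0 under every alternative run. For sex it was 1, and 2 without affected fox 55, for a range of 1 to 2 over left-out foxes. No paired analysis was possible because the groups share no fox number. Genes of the set with a lower mean in affected foxes numbered 12 in females alone and 12 in the foxes of low 5' actin. Fox 402 was the only unaffected fox in both of these. With each fox left out the number was 12 (without fox 86) to 26 (without fox 97). The median pairwise r was 0.43 with Spearman's rho, and 0.26 (without fox 86) to 0.67 over left-out foxes. Offsets of 1 and 64, and no filter, left the count at 22, and leaving out the lowest 60% removed 3 genes.

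Signs of differences, none of which passed the threshold, turned as follows. With the actin ratio as covariate STAT2 was 0.035, IRF7 0.12, IRF9 0.060 and IFI35 0.038, and with array weights IRF7 was 0.035, IRF9 0.069, IFI35 0.16 and XAF1 0.084. In females alone HERC5 was 0.075, OAS2 0.25, STAT2 0.36, IRF7 0.58, IRF9 0.24, RSAD2 0.12, PARP9 0.24, PARP14 0.21, IFI35 0.15 and XAF1 0.49. In males alone IFIT2 was 0.10, OAS1 -0.010, OAS3 -0.015, IFIH1 -0.025, IFI6 -0.026 and SAMD9L -0.056. With the mean of all probe sets IFI6 was -0.037 and IFI35 0.087, and with the second probe set OAS1 was -0.043, STAT2 0.066, IFI6 -0.17 and IFI35 0.081. With quantile normalization OAS1 was -0.032 and IFI35 0.0090, and with sex as covariate IFI35 was 0.0098. Within high 5' actin IFIT2 was 0.091 and IFIH1 -0.12. Within low 5' actin ISG15 was 0.28, HERC5 0.060, OAS2 0.34, STAT2 0.085, IRF7 0.26, IRF9 0.30, CMPK2 0.23, PARP9 0.19, PARP14 0.38, IFI6 -0.19, IFI35 0.24 and XAF1 0.44.

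Over left-out foxes the sign of 14 genes turned. Ranges were -0.39 to 0.095 for ISG15, -0.28 to 0.039 for IFIT2, -0.17 to 0.27 for OAS1, -0.41 to 0.11 for OAS2 and -0.10 to 0.44 for IFIH1. They were -0.64 to 0.18 for IRF7, -0.25 to 0.20 for IRF9, -0.26 to 0.14 for CMPK2, -0.59 to 0.066 for PARP9 and -0.26 to 0.069 for PARP14. They were -0.12 to 0.35 for IFI6, -0.22 to 0.35 for IFI35, -0.47 to 0.31 for XAF1 and -0.11 to 0.35 for SAMD9L. The cause was not tested.

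With 3 unaffected foxes and 1 array each, fox 86 is 1 of 3 values of its group, and the fox, its tissue piece and its array cannot be told apart. Dim genes such as RSAD2 and IFIT2, with signals near the offset, have shrunken differences.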

Other observations

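The genes outside the set whose pattern was most like it were ranked by Pearson r with the mean centred value of the 27 genes over the 8 foxes. Symbols that start with LOC or ENSCAFG were passed over in this ranking. The first 10 were SPC25 (0.97), CPNE7 (0.96), MAP1A (0.96), SPATS2 (0.95), SLC35B4 (0.94), SLC23A3 (0.94), ILK (0.94), SAR1A (0.94), SEZ6L (0.94) and TNFRSF11B (0.93). All 10 were highest in fox 86, and none was in a pathway or marker list used here. Without fox 86 their r ran from 0.69 for ILK to 0.96 for SPC25. SPC25 is a subunit of the kinetochore complex that ties chromosomes to the spindle, ILK a kinase of integrin adhesions and TNFRSF11B the decoy receptor that restrains bone resorption. In all, 30 genes outside the set had r above 0.9, over 8 foxes and 10824 genes tested.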
